A study of Homo sapiens with 4 samples.

Results

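The genes of the unfolded protein response and the ATF4 amino acid response were examined in human glioblastoma cells with reduced *FLI1*, an ETS family transcription factor. The members were a list of 38 named genes taken from knowledge of these pathways, 38 of the 46660 gene identifiers in the deposited expression table, and the rule that lists them uses no measured value, although the list was drawn up with earlier results of these data known. The list was divided into an ATF4 arm of 23 genes and an ATF6/XBP1 arm of 15 genes, named after the transcription factors best known to drive them. All 38 genes were found in the table and passed the filters on low counts, with between 117 and 28490 counts per gene and library.

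The data comprised 4 RNA-seq libraries, 1 from control cells and 1 from shFLI1 cells in each of U87MG and U251MG, which are established human glioblastoma cell lines. Control cells carried an empty lentiviral vector, called pGreen in the treatment labels and shControl in the sample titles, and shFLI1 cells carried a lentivirus with short hairpin RNA against *FLI1*. Every culture was infected, selected with puromycin and kept as a mixed stable population, so that infection and selection were common to all 4 groups and no uninfected library was analysed here. The study describes 2 hairpins against *FLI1*, and the labels do not say which of them a library carries. Its methods state that the U87MG stock is the version from a glioblastoma of unknown origin.

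Because each group was 1 library, no comparison inside a cell line could be checked against replicates. Library totals ranged from 12229780 to 28891055 counts, and in both cell lines more reads were counted in shFLI1 than in control. Levels are given as CPM (counts per unit of TMM-scaled library size) and, for comparisons between genes, as the authors' FPKM, which also divides by transcript length. The log2 fold change is that of shFLI1 over control on the log2 CPM scale with a prior count of 2, and the range in brackets after it is a 95% Clopper-Pearson interval that covers counting error only. *FLI1* itself had 9.34 CPM in U87MG control, 2.34 in U87MG shFLI1, 12.1 in U251MG control and 3.71 in U251MG shFLI1, with log2 fold changes of -1.95 in U87MG (-2.51 to -1.51) and -1.68 in U251MG (-2.05 to -1.37). Both libraries labelled shFLI1 were thus below their control for the targeted gene. Of the glial and progenitor markers, *VIM*, *NES*, *CD44*, *SOX2* and *GFAP* were counted in every library, from 364 counts of *GFAP* in U251MG control upwards, *S100B* had between 1 and 11 counts, and the markers of other cells *PTPRC*, *PECAM1* and *ALB* had at most 5. For *CD3E* and *EPCAM*, also listed as markers of other cells, no values were at hand. The astrocyte filament gene *GFAP* was higher in both shFLI1 libraries (1.32 and 2.19 on the log2 scale), and whether this bears on the stress genes was not tested. In bulk libraries such as these, fewer cells expressing a gene and less of its RNA per cell cannot be told apart.

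Cells answer unfolded protein in the endoplasmic reticulum (ER) through the sensors PERK, IRE1 and ATF6. PERK and the related kinases GCN2, PKR and HRI phosphorylate the initiation factor eIF2, which lowers general translation but favours translation of *ATF4* mRNA, and the ATF4 protein then switches on genes for amino acid supply, redox balance and, when stress lasts, cell death. IRE1 removes a short intron from *XBP1* mRNA in the cytoplasm so that the active XBP1 factor is made, and XBP1 and cleaved ATF6 raise ER chaperones, folding enzymes and the machinery that degrades misfolded proteins.

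The short DNA elements through which these factors are known to act are shown first, as matches of letters in the promoters of the members. RefSeq promoter windows of 300 bases (250 before and 50 after a start site, GRCh38.p14) were at hand for 34 of the 38 genes, 46 windows in all, and for 35093 windows in total. On both strands, the C/EBP-ATF response element (CARE, bound by ATF4; TGATGNAA) was found in 5 of 28 windows of the ATF4 arm, in 1 of 18 windows of the ATF6/XBP1 arm and in 3.62% of all windows. The ER stress element (ERSE, bound by ATF6; CCAAT, then 9 bases, then CCACG) was found in 0 of 28 windows of the ATF4 arm, in 6 of 18 of the ATF6/XBP1 arm and in 0.0769% of all windows. ERSE-II (ATTGG, 1 base, CCACG) was found in 3 of those 18 windows and in 0.0541% of all, and the UPR element (UPRE, bound by XBP1; TGACGTGG) in 1 of 18 and in 0.729% of all. The 1 UPRE match, in *HYOU1*, overlapped an ERSE-II match. Overlapping windows of the same gene were counted separately. The genes were listed as known targets of these factors, so the shares describe the list and test nothing.

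The genes with a CARE match were *ASNS*, *ATF3*, *CHAC1*, *SLC3A2*, *SLC7A1* and *HERPUD1*, those with ERSE were *CALR*, *CRELD2*, *HSP90B1*, *HSPA5*, *PDIA6* and *XBP1*, and those with ERSE-II were *HERPUD1*, *HYOU1* and *SDF2L1*. Such a match describes the letters and does not show that a factor is bound. The CARE matches of *SLC3A2* and *SLC7A1* began after the start site, at positions 38 and 8. *ATF3* had a further window, at chr1:212614768-212615067, without a match. Below, 100 bases around the element are printed 5′ to 3′ on the strand of the gene for 3 genes of the ATF4 arm and 3 of the ATF6/XBP1 arm, with the bases of the element in capitals; for ERSE the 9 bases between its ends are in lower case. *ASNS* lies at chr7:97872424-97872523 (minus strand), *ATF3* at chr1:212565169-212565268 (plus), *CHAC1* at chr15:40953221-40953320 (plus), *HERPUD1*, which holds both a CARE and an ERSE-II, at chr16:56931950-56932049 (plus), *HSPA5* at chr9:125241351-125241450 (minus) and *XBP1* at chr22:28800563-28800662 (minus). In *CHAC1* and *HERPUD1* the CARE reads on the opposite strand, as its reverse complement.
ASNS: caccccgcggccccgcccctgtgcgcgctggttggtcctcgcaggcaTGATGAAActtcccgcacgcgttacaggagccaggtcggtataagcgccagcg
ATF3: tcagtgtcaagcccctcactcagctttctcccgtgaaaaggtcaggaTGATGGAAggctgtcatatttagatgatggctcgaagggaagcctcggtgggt
CHAC1: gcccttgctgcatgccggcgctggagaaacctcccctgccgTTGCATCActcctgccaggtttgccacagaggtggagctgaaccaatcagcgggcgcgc
HERPUD1: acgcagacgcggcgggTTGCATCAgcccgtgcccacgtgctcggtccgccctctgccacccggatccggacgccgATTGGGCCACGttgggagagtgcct
HSPA5: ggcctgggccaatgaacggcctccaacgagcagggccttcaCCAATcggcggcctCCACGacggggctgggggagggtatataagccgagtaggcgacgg
XBP1: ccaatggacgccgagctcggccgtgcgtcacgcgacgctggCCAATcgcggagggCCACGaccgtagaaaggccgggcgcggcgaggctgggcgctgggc

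The genes of the ATF4 arm were mostly lower in shFLI1 than in control cells, and those of the ATF6/XBP1 arm were divided. The ATF4 arm had a median log2 fold change of -0.59 (U87MG) and -0.34 (U251MG), against 0.059 and 0.041 over all tested genes. The ATF6/XBP1 arm had medians of -0.093 and -0.056, whose sign turned with scaling to total counts (0.067 and 0.017) and with the authors' FPKM at a pseudocount of 1 (0.046 and 0.0035). The difference between the arms, ATF4 minus ATF6/XBP1, was -0.50 in U87MG and -0.29 in U251MG, and it kept its sign under every setting tried. Scaling to total counts moved the median of all genes to 0.22 in U87MG and 0.11 in U251MG, and the medians of both arms lay below the median of all genes under each scaling in each cell line. In the ATF4 arm 19 of 23 genes were lower in both cell lines, and in the ATF6/XBP1 arm 8 of 15, whereas 28% of the 16384 genes tested in both cell lines were. Over the 38 genes 27 were lower in both and 6 higher in both, the latter against 35.5% of all genes. With scaling to total counts 14 of 23 and 5 of 15 were lower in both.

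**Figure D1:**
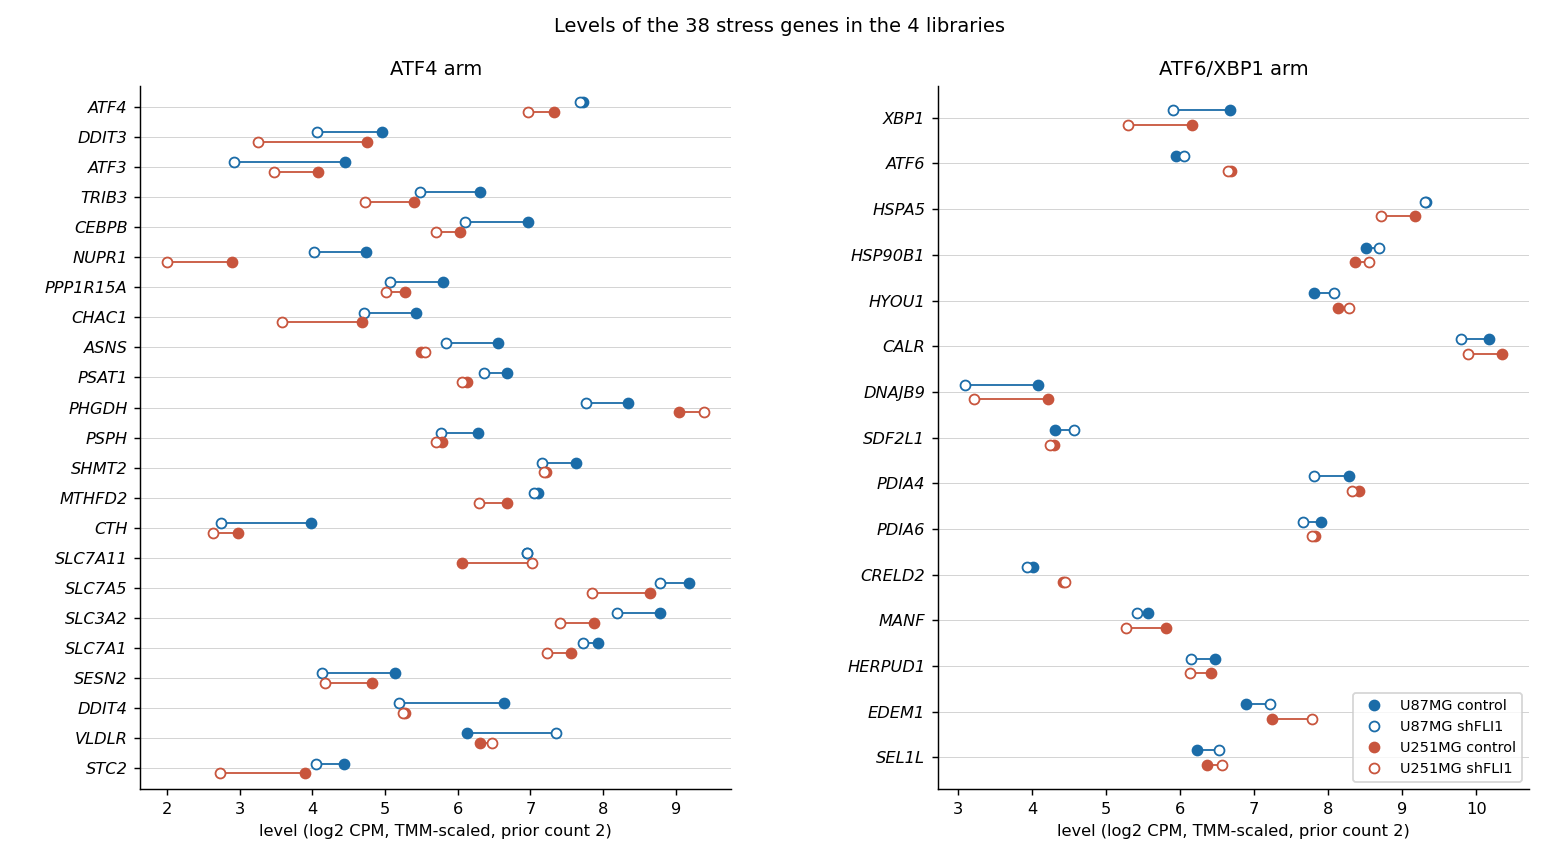
Level of each of the 38 genes in the 4 libraries, as log2 CPM on the x axis (TMM scaling, prior count 2), with the ATF4 arm on the left and the ATF6/XBP1 arm on the right. Filled circles are control and open circles shFLI1, blue U87MG and red U251MG, 1 library each, and in 19 of 23 rows on the left and 8 of 15 on the right the open circle lies to the left of the filled one in both cell lines (14 and 5 with scaling to total counts).

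A gene was called within a cell line when its 2 libraries differed by more than 2-fold and an exact binomial test on its reads gave P below 0.05, which compares libraries and not conditions. In U87MG, *ATF3*, *CTH*, *SESN2* and *DDIT4* were called lower, 4 of 38 genes (10.5%) against 4.33% of 17355 tested genes. Only *VLDLR* was called higher there, 1 of 38 (2.63%) against 7.48% of the tested genes. In U251MG, *DDIT3*, *CHAC1*, *STC2* and *DNAJB9* were called lower, 4 of 38 (10.5%) against 4.06% of 18222 tested genes, and 0 of 38 were called higher against 4.44%. The read test called 0 of 38 members in both cell lines. Of the 16384 genes tested in both, 1.45% were called lower in both, 0.842% higher in both and 0.397% in opposite directions. These shares are so small that 0 of 38 does not set the members apart. The members past the threshold were not the same in U87MG and U251MG, but a call in 1 cell line and none in the other does not test a difference between them. Of the 38 genes, 18 had an interval below 0 in both cell lines against 12.2% of the 16384 genes tested in both, and 5 had an interval above 0 in both, against 11.8%. Members had 117 counts or more in every library, while a tested gene needed 10 counts in 1 library of a cell line. Intervals narrow with more counts, and no share over genes of like depth was taken, so these shares are not like for like.

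For the effect common to U87MG and U251MG, edgeR's quasi-likelihood test was fitted to all 4 libraries with a block for the cell line. The cell lines stand in for replicates there, and 1 residual degree of freedom remains. The error of each gene is drawn toward a trend over all genes, so P values and SE are not the spread between the 2 cell lines alone. At a Benjamini-Hochberg adjusted P below 0.05 over 16649 genes, *DDIT3*, *TRIB3*, *CHAC1*, *SESN2*, *XBP1* and *DNAJB9* fell, 6 of 38 genes (15.8%) against 2.14% of all tested genes. In the other direction edgeR called 0 of 38 members against 0.919%, and DESeq2 with the same block also called 0. At an unadjusted P below 0.05 there were 20 of 38 members (52.6%) against 16.5% of all genes in edgeR. DESeq2 with the block had 18 of 38 members and 1409 of the 16649 genes below that P. With a minimum of 100 counts in every library, met by all 38 members, edgeR had 18 members and 1957 of 9772 genes below that P. DESeq2 with the block called 405 of the 16649 genes, of which 5 were members, all lower. These were *DDIT3*, *TRIB3*, *CHAC1*, *XBP1* and *SLC7A5*. The calls of *SESN2* (adjusted P of 0.0690) and *DNAJB9* (0.0726) were lost there. Without the block edgeR called 0 of the 16649 genes, with 725 at an unadjusted P below 0.05, of which 4 were members. With scaling to total counts edgeR called 364 of the 16649 genes and 1 of 38 members, *DDIT3*, a share close to that of all genes. The adjusted P of the other 5 members called with TMM ranged from 0.0560 to 0.0799. At an unadjusted P below 0.05 that setting had 17 members and 3000 of the 16649 genes.

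**Figure D2:**
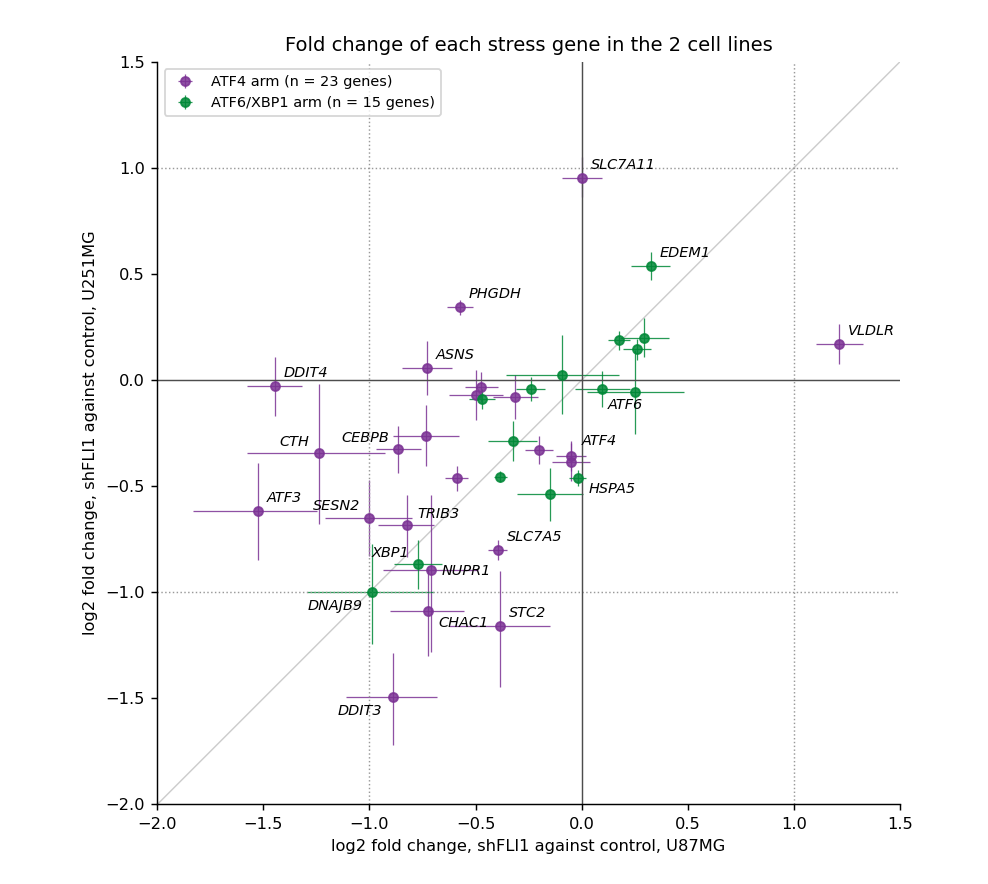
The log2 fold change of shFLI1 over control in U87MG (x axis) against that in U251MG (y axis) for the 38 genes, with bars for the 95% counting intervals, dotted lines at 2-fold, and a grey diagonal where both are equal. Purple points are the ATF4 arm and green points the ATF6/XBP1 arm; *DDIT3*, *CHAC1*, *XBP1*, *DNAJB9*, *TRIB3* and *SESN2* lie in the lower left, and *VLDLR* and *SLC7A11* stand apart to the right and at the top.

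The regulators and feedback genes of the ATF4 arm were the most uniform group. All 8 were lower in shFLI1 cells in both cell lines, with medians of -0.78 (U87MG) and -0.65 (U251MG) on the log2 scale; with scaling to total counts or with FPKM 7 of 8 were, the exception being *ATF4* in U87MG. *ATF4* mRNA, which is controlled mainly at translation, had 212 CPM in U87MG control, 204 in U87MG shFLI1, 160.4 in U251MG control and 125 in U251MG shFLI1. Its 2 U87MG libraries were close together and its U251MG shFLI1 library was the lowest of the 4. These are log2 fold changes of -0.050 in U87MG (-0.12 to 0.021) and -0.36 in U251MG (-0.43 to -0.29), with a value of 0.11 in U87MG after scaling to total counts. The shared log2 fold change was -0.22 ± 0.15 (SE, n = 2 cell lines), with an adjusted P of 0.526 from edgeR's quasi-likelihood test with Benjamini-Hochberg adjustment. In U87MG 21 of the other 22 genes of the arm had a larger absolute log2 fold change than *ATF4*, and in U251MG 11 of 22 did. ATF4 protein was not measured in these libraries.

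*DDIT3* encodes CHOP, a C/EBP family factor that promotes cell death in lasting stress. It had 30.8 CPM in U87MG control, 16.6 in U87MG shFLI1, 26.7 in U251MG control and 9.42 in U251MG shFLI1. Both shFLI1 libraries were below both control libraries, and the lowest was that of U251MG. The gene had log2 fold changes of -0.89 in U87MG (-1.11 to -0.68) and -1.49 in U251MG (-1.72 to -1.29), and the shared log2 fold change was -1.21 ± 0.19 (SE, n = 2 cell lines), with an adjusted P of 0.0142 from edgeR's quasi-likelihood test with Benjamini-Hochberg adjustment. Its fold change differed between the cell lines by -0.60 (-0.90 to -0.30) (U251MG minus U87MG, 95% counting interval). *CHAC1*, a CHOP and ATF4 target that degrades glutathione, had 43.1 CPM in U87MG control, 26.0 in U87MG shFLI1, 25.5 in U251MG control and 11.9 in U251MG shFLI1. In each cell line shFLI1 was the lower library, and U87MG shFLI1 and U251MG control were at nearly the same level. *CHAC1* had log2 fold changes of -0.73 in U87MG (-0.90 to -0.55) and -1.09 in U251MG (-1.30 to -0.89), and its shared log2 fold change was -0.92 ± 0.16 (SE, n = 2 cell lines), with an adjusted P of 0.0222 from edgeR's quasi-likelihood test with Benjamini-Hochberg adjustment.

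*TRIB3*, a pseudokinase that feeds back on ATF4 and AKT, had 78.7 CPM in U87MG control, 44.4 in U87MG shFLI1, 42.2 in U251MG control and 26.2 in U251MG shFLI1. Its level was lower in shFLI1 in each cell line, and U87MG shFLI1 was at about the level of U251MG control. *TRIB3* had log2 fold changes of -0.82 in U87MG (-0.96 to -0.69) and -0.68 in U251MG (-0.83 to -0.54), and the shared log2 fold change was -0.77 ± 0.14 (SE, n = 2 cell lines), with an adjusted P of 0.0263 from edgeR's quasi-likelihood test with Benjamini-Hochberg adjustment, while the fold changes of the 2 cell lines differed by 0.14 (-0.054 to 0.34). *ATF3*, an early stress factor of the ATF family, had 21.7 CPM in U87MG control, 7.46 in U87MG shFLI1, 16.8 in U251MG control and 11.0 in U251MG shFLI1. The fall in U87MG was the larger, and both shFLI1 libraries were below both controls. *ATF3* had log2 fold changes of -1.52 in U87MG (-1.83 to -1.25) and -0.62 in U251MG (-0.85 to -0.39), a difference between the cell lines of 0.91 (0.55 to 1.27). The shared log2 fold change was -1.08 ± 0.25 (SE, n = 2 cell lines), with an adjusted P of 0.0559 from edgeR's quasi-likelihood test with Benjamini-Hochberg adjustment, and over the alternatives the adjusted P ranged from 4.96e-05 to 0.995. With the authors' FPKM at a pseudocount of 1 the U87MG value of *ATF3* was -0.79 and no longer past 2-fold.

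The other regulators were below 2-fold in both cell lines and not called by edgeR. *CEBPB*, a C/EBP factor and partner of ATF4, had log2 fold changes of -0.86 and -0.32 in U87MG and U251MG. *NUPR1*, a small chromatin protein induced by stress, had -0.71 and -0.89, and *PPP1R15A*, which encodes the GADD34 phosphatase subunit that reverses eIF2 phosphorylation, had -0.73 and -0.26. All 3 had intervals below 0 in both cell lines. *NUPR1* had the lowest FPKM of the 38 genes in 3 of the 4 libraries, 5.40 in U87MG control, 1.44 in U251MG control and 0.86 in U251MG shFLI1, and *CTH* was the lowest in U87MG shFLI1, at 3.15.

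**Figure D3:**
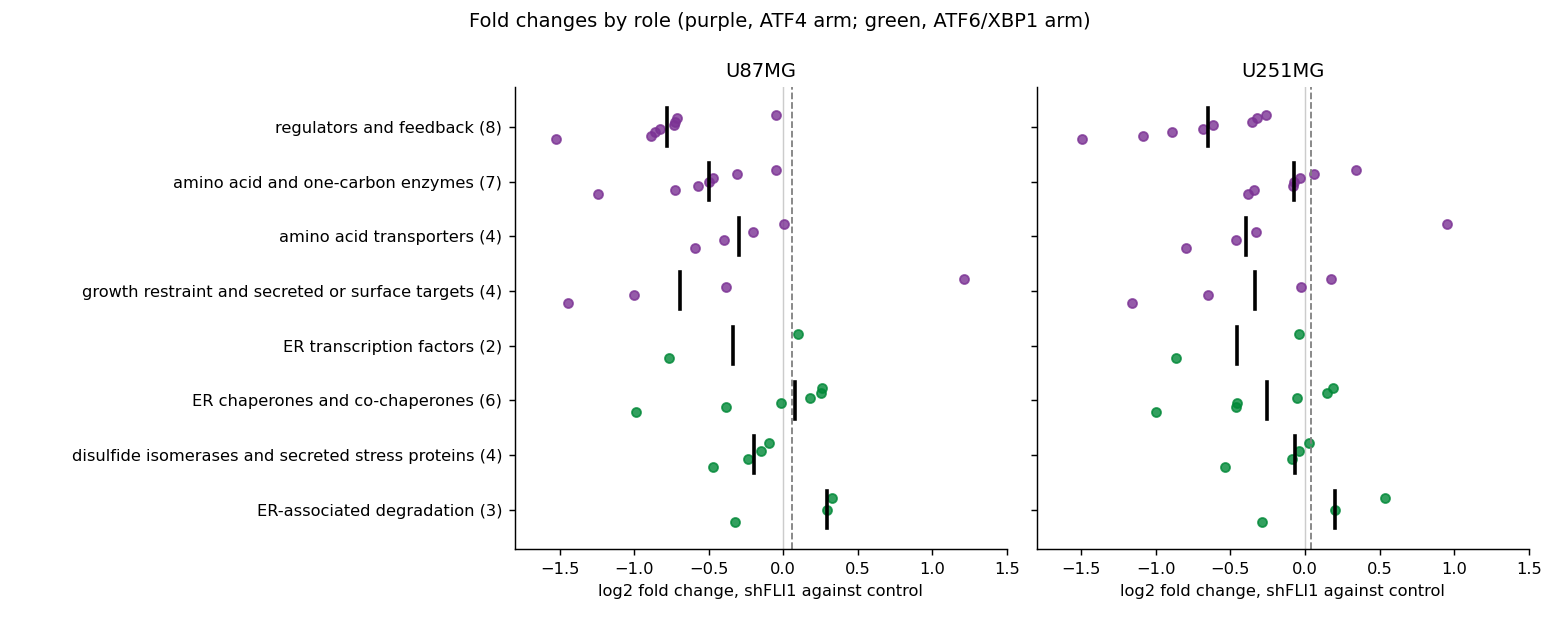
The log2 fold changes (x axis) of the 38 genes grouped by role, with the number of genes in brackets, in U87MG (left) and U251MG (right). Points are genes, black bars group medians and dashed lines the medians of all tested genes (0.059 and 0.041); the regulators have medians of -0.78 and -0.65, and the enzymes -0.50 and -0.071.

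The amino acid and one-carbon enzymes differed between the cell lines. In U87MG all 7 were lower in shFLI1, with a median of -0.50 and 6 intervals below 0; in U251MG the median was -0.071, 5 of 7 were lower and 2 intervals lay below 0. With scaling to total counts 2 of the 7 were lower in both cell lines, against 5 of 7 with TMM. For 6 of 7 the counting interval of the difference placed the lower value in U87MG, and for *MTHFD2* it placed it in U251MG. No share over all genes was taken for this count, and with 1 library per arm the difference could not be tested against replicate error. *ASNS*, asparagine synthetase and a standard ATF4 target, had 94.2 CPM in U87MG control, 56.8 in U87MG shFLI1, 44.8 in U251MG control and 46.6 in U251MG shFLI1. The U87MG control library was the highest of the 4, and the other 3 lay between 44.8 and 56.8 CPM. The gene had log2 fold changes of -0.73 in U87MG (-0.85 to -0.61) and 0.058 in U251MG (-0.068 to 0.19), a difference of 0.79 (0.62 to 0.96), and the shared log2 fold change was -0.35 ± 0.20 (SE, n = 2 cell lines), with an adjusted P of 0.417 from edgeR's quasi-likelihood test with Benjamini-Hochberg adjustment.

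*CTH*, which makes cysteine from cystathionine, had 15.6 CPM in U87MG control, 6.56 in U87MG shFLI1, 7.74 in U251MG control and 6.08 in U251MG shFLI1. As for *ASNS*, the U87MG control library stood above the other 3, and the log2 fold changes of -1.24 in U87MG (-1.58 to -0.93) and -0.34 in U251MG (-0.68 to -0.019) differed by 0.90 (0.45 to 1.34). Its shared log2 fold change was -0.82 ± 0.27 (SE, n = 2 cell lines), with an adjusted P of 0.162 from edgeR's quasi-likelihood test with Benjamini-Hochberg adjustment. *PHGDH*, *PSAT1* and *PSPH* carry out the successive steps of serine synthesis. *PHGDH*, named here because of its opposite signs and so chosen after its values were seen, had 324 CPM in U87MG control, 218 in U87MG shFLI1, 529.9 in U251MG control and 672 in U251MG shFLI1. Its U87MG shFLI1 library was the lowest and its U251MG shFLI1 library the highest, with log2 fold changes of -0.57 in U87MG (-0.64 to -0.51) and 0.34 in U251MG (0.31 to 0.38). *PSAT1* had log2 fold changes of -0.31 and -0.080, and *PSPH*, whose reads were divided over 31 RNAs and may be shared with near-identical copies, had -0.50 and -0.071. The mitochondrial folate enzymes *SHMT2* and *MTHFD2* had -0.47 and -0.031 and -0.051 and -0.39, in the order U87MG and U251MG.

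Of the amino acid transporter genes, *SLC7A5*, *SLC3A2* and *SLC7A1* were lower in both cell lines and *SLC7A11* was not. *SLC7A5*, the light chain of the LAT1 carrier, had log2 fold changes of -0.39 and -0.80 in U87MG and U251MG. Its partner *SLC3A2*, the heavy chain CD98, had -0.59 and -0.46, and *SLC7A1*, a carrier of arginine and lysine, had -0.20 and -0.33. All 3 had intervals below 0 in both cell lines and none was called by edgeR, with adjusted P values from 0.114 to 0.382; with DESeq2 the adjusted P of *SLC7A5* was 0.0346, and over its alternatives it ranged from 0.0115 to 1.00. *SLC7A11*, the cystine-glutamate exchanger and also a target of the antioxidant factor NRF2, had log2 fold changes of 0.0017 and 0.95, with a difference between the cell lines of 0.95 (0.82 to 1.08) and an adjusted P of 0.331 in edgeR. In U251MG its level was 66.8 CPM in control and 129 CPM in shFLI1, below the 2-fold threshold with TMM and past it (1.03) with scaling to total counts.

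The last group of the ATF4 arm held regulators of growth and secreted or surface proteins. *SESN2*, sestrin 2, which restrains mTORC1 when leucine is scarce, had 35.1 CPM in U87MG control, 17.5 in U87MG shFLI1, 28.0 in U251MG control and 17.9 in U251MG shFLI1. Both shFLI1 libraries were below both control libraries. It had log2 fold changes of -1.00 in U87MG (-1.21 to -0.80) and -0.65 in U251MG (-0.83 to -0.47), and the shared log2 fold change was -0.84 ± 0.17 (SE, n = 2 cell lines), with an adjusted P of 0.0341 from edgeR's quasi-likelihood test with Benjamini-Hochberg adjustment. Its counts were split in equal parts between 2 records of 1 transcript in every library, and the U87MG call in the read test rested on a value close to the threshold, -0.84 with scaling to total counts. The shared call of *SESN2* was lost in DESeq2 with the block, at an adjusted P of 0.0690. *DDIT4*, REDD1, another brake on mTORC1, had 99.2 CPM in U87MG control, 36.4 in U87MG shFLI1, 38.6 in U251MG control and 37.8 in U251MG shFLI1. The U87MG control library stood above the other 3, which lay between 36.4 and 38.6 CPM. *DDIT4* had log2 fold changes of -1.45 in U87MG (-1.58 to -1.32) and -0.030 in U251MG (-0.17 to 0.11) and the widest difference between the cell lines of the 38 genes, 1.42 (1.23 to 1.60), and its shared log2 fold change was -0.76 ± 0.29 (SE, n = 2 cell lines), with an adjusted P of 0.234 from edgeR's quasi-likelihood test with Benjamini-Hochberg adjustment.

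*VLDLR*, a lipoprotein receptor that ATF4 can induce, was the only member called higher. It had 70.0 CPM in U87MG control, 162 in U87MG shFLI1, 78.9 in U251MG control and 88.8 in U251MG shFLI1. The U87MG shFLI1 library was the highest, and the other 3 lay between 70.0 and 88.8 CPM. The log2 fold changes of 1.21 in U87MG (1.10 to 1.33) and 0.17 in U251MG (0.078 to 0.27) differed by -1.04 (-1.19 to -0.90), and the shared log2 fold change was 0.67 ± 0.22 (SE, n = 2 cell lines), with an adjusted P of 0.169 from edgeR's quasi-likelihood test with Benjamini-Hochberg adjustment. *STC2*, a secreted stanniocalcin, had 21.5 CPM in U87MG control, 16.4 in U87MG shFLI1, 14.8 in U251MG control and 6.55 in U251MG shFLI1. The U251MG shFLI1 library was the lowest, and the gene had log2 fold changes of -0.39 in U87MG (-0.63 to -0.15) and -1.16 in U251MG (-1.45 to -0.90); in U87MG the authors' FPKM gave 0.24 at a pseudocount of 1, so the direction there depended on the measure. Its shared log2 fold change was -0.79 ± 0.22 (SE, n = 2 cell lines), with an adjusted P of 0.112 from edgeR's quasi-likelihood test with Benjamini-Hochberg adjustment.

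In the ATF6/XBP1 arm, the transcription factors *XBP1* and *ATF6* did not move together. *XBP1* had 102 CPM in U87MG control, 59.8 in U87MG shFLI1, 71.4 in U251MG control and 39.1 in U251MG shFLI1. In U87MG shFLI1 58.6% of the control amount was left and in U251MG shFLI1 54.8%, and U251MG shFLI1 was the lowest of the 4. *XBP1* had log2 fold changes of -0.77 in U87MG (-0.88 to -0.66) and -0.87 in U251MG (-0.98 to -0.75), and the shared log2 fold change was -0.83 ± 0.14 (SE, n = 2 cell lines), with an adjusted P of 0.0165 from edgeR's quasi-likelihood test with Benjamini-Hochberg adjustment, while the fold changes of the cell lines differed by -0.096 (-0.26 to 0.065). *ATF6* had 61.7 CPM in U87MG control, 66.0 in U87MG shFLI1, 103 in U251MG control and 100.2 in U251MG shFLI1. Its levels separated the cell lines and not the arms, with log2 fold changes of 0.098 in U87MG (-0.032 to 0.23) and -0.041 in U251MG (-0.13 to 0.043), and its shared log2 fold change was 0.012 ± 0.14 (SE, n = 2 cell lines), with an adjusted P of 0.980 from edgeR's quasi-likelihood test with Benjamini-Hochberg adjustment.

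The table lists the unspliced and the spliced form of *XBP1* mRNA as separate RNAs. In GENCODE v44 on hg38, the spliced form lacks 26 bases of the coding sequence at chr22:28796128-28796153 (minus strand), which changes the reading frame and takes the protein from 261 to 376 codons. The removed bases are shown in capitals with 12 bases on either side, because the share of the spliced form turns on them.
XBP1 removed stretch: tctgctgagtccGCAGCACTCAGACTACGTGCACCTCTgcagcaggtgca
The spliced form took 20 of 1168 *XBP1* counts in U87MG control, 1.71% (95% Clopper-Pearson interval 1.05% to 2.63%), and 67 of 1330 in U87MG shFLI1, 5.04% (3.93% to 6.35%). In U251MG it took 119 of 1273 counts in control, 9.35% (7.80% to 11.1%), and 96 of 1172 in shFLI1, 8.19% (6.69% to 9.91%). The share was thus higher in shFLI1 than in control in U87MG, with intervals that did not overlap, and in U251MG the intervals overlapped. The 2 forms share nearly all of their sequence, so the intervals do not cover the error of dividing reads between them, and there is no replicate. The unspliced form held most counts in every library, 1135 in U87MG control, 1258 in U87MG shFLI1, 1114 in U251MG control and 1076 in U251MG shFLI1.

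**Figure D4:**
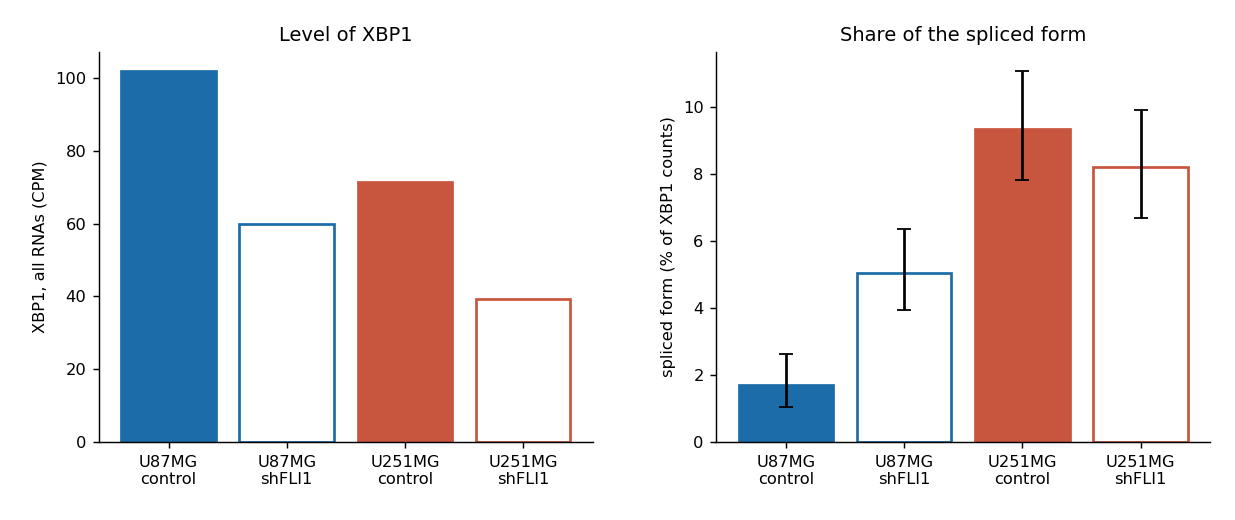
Left, level of *XBP1* over all its RNAs in CPM in each of the 4 libraries; right, the spliced form as a percentage of all *XBP1* counts, with 95% Clopper-Pearson intervals as bars. Filled bars are control and open bars shFLI1, 1 library each; the level was lower in shFLI1 in both cell lines, and the spliced share was 1.71% and 5.04% in U87MG and 9.35% and 8.19% in U251MG.

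The ER chaperones were divided, with medians of 0.079 (U87MG) and -0.26 (U251MG) on the log2 scale. *HSPA5* encodes BiP, the main ER chaperone of the HSP70 family, whose induction is the usual marker of ER stress. It had 642 CPM in U87MG control, 634 in U87MG shFLI1, 577 in U251MG control and 419 in U251MG shFLI1. The U251MG shFLI1 library was the lowest, and the 2 U87MG libraries were nearly equal. These are log2 fold changes of -0.018 in U87MG (-0.059 to 0.023) and -0.46 in U251MG (-0.50 to -0.43), with 0.14 in U87MG after scaling to total counts, and the shared log2 fold change was -0.26 ± 0.19 (SE, n = 2 cell lines), with an adjusted P of 0.553 from edgeR's quasi-likelihood test with Benjamini-Hochberg adjustment. *DNAJB9*, ERdj4, a BiP co-chaperone induced through XBP1, was the other member of this arm that the shared edgeR test called lower. It had 16.8 CPM in U87MG control, 8.41 in U87MG shFLI1, 18.4 in U251MG control and 9.15 in U251MG shFLI1. Both shFLI1 libraries lay at about one level below both controls. *DNAJB9* had log2 fold changes of -0.99 in U87MG (-1.29 to -0.70) and -1.00 in U251MG (-1.24 to -0.77), on the 2-fold line in both cell lines, and the shared log2 fold change was -1.02 ± 0.19 (SE, n = 2 cell lines), with an adjusted P of 0.0264 from edgeR's quasi-likelihood test with Benjamini-Hochberg adjustment. In DESeq2 with the block its adjusted P was 0.0726, and with scaling to total counts 0.0653 in edgeR, so that the call was lost in both.

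The other chaperones showed smaller values in both directions. *CALR*, the lectin chaperone calreticulin, was the most abundant member in every library, with FPKM of 661, 563, 786 and 603 in the order U87MG control, U87MG shFLI1, U251MG control and U251MG shFLI1, and had log2 fold changes of -0.38 and -0.45. *HSP90B1*, the ER member of the HSP90 family, had 0.18 and 0.19, and *HYOU1*, an ER chaperone that exchanges the nucleotide of BiP, had 0.26 and 0.14, all with intervals above 0. *SDF2L1*, part of an ER chaperone complex, had 0.25 and -0.056. None of these 4 was called by edgeR, with adjusted P values from 0.297 to 0.867.

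The disulfide isomerases and secreted stress proteins were mostly slightly lower, with medians of -0.19 in U87MG and -0.066 in U251MG. The isomerases *PDIA4* and *PDIA6* had log2 fold changes of -0.47 and -0.090 and of -0.24 and -0.041. *CRELD2* and *MANF*, ER proteins secreted under stress, had -0.093 and 0.026 and -0.15 and -0.54. With scaling to total counts 1 of these 4 was lower in both cell lines, against 3 of 4 with TMM. Of the genes of ER-associated degradation, *HERPUD1*, which organises the degradation complex, had -0.32 and -0.29. *EDEM1*, which marks misfolded glycoproteins, had 0.33 and 0.54, and *SEL1L*, the partner of the ubiquitin ligase HRD1, had 0.30 and 0.20. *EDEM1* and *SEL1L* had intervals above 0 in both cell lines and *HERPUD1* intervals below 0 in both, and edgeR called none of the 3, with adjusted P values from 0.193 to 0.440.

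The control libraries already differed between the cell lines in the ATF4 arm. On the log2 CPM scale, 21 of its 23 genes were lower in U251MG control than in U87MG control, with a median difference of -0.53, against 41.6% of 16391 genes and a median of 0.11 over all of them. In the ATF6/XBP1 arm 6 of 15 were lower in U251MG control, with a median difference of 0.14. By length-scaled level, the median FPKM of the ATF4 arm was 42.3 in U87MG control, 28.1 in U87MG shFLI1, 27.8 in U251MG control and 24.9 in U251MG shFLI1. That of the ATF6/XBP1 arm was 49.6, 42.6, 45.5 and 39.2 in the same order. By FPKM the median of the ATF4 arm in U87MG shFLI1 was thus near that of U251MG control. FPKM is not TMM-scaled. At a pseudocount of 1 it gave a median log2 fold change of 0.14 over all genes in U87MG, against 0.059 with TMM. With 1 library per group none of these differences was tested. Of the 38 genes, the counting interval of the difference placed the lower fold change in U87MG for 16 and in U251MG for 13, and held 0 for 9. No share over all genes was taken for these counts. The intervals cover counting error only and narrow with more counts, so the counts do not set these genes apart from others.

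The other genes of the pathway were read from 3 lists. Of 19 sensors and translation control genes, 1 was called in U251MG (5.26%, against 8.5% of all tested genes) and 0 in U87MG (against 11.8%), and the median log2 fold changes were -0.041 and -0.0047 in U87MG and U251MG. *EIF2AK2*, which encodes the double-stranded RNA kinase PKR and is also known as an interferon-induced gene, had 258 CPM in U87MG control, 135 in U87MG shFLI1, 295 in U251MG control and 115 in U251MG shFLI1. Both shFLI1 libraries were below both controls, with log2 fold changes of -0.94 in U87MG (-1.01 to -0.86) and -1.36 in U251MG (-1.42 to -1.30), and the shared log2 fold change was -1.16 ± 0.16 (SE, n = 2 cell lines), with an adjusted P of 0.00806 from edgeR's quasi-likelihood test with Benjamini-Hochberg adjustment. *EIF2AK3*, which encodes PERK, had log2 fold changes of 0.40 in U87MG (0.16 to 0.65) and 0.14 in U251MG (-0.046 to 0.33) and an adjusted P of 0.512 in edgeR. *ERN1*, which encodes IRE1, had log2 fold changes of -0.14 in U87MG (-0.47 to 0.19) and -0.0081 in U251MG (-0.28 to 0.26) and an adjusted P of 0.878 in edgeR.

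Of 32 other ATF4 targets, 30 were tested in U87MG, where 4 were called lower (13.3%, against 4.33% of all tested genes), and 32 in U251MG, where 2 were called lower (6.25%, against 4.06%), with medians of -0.38 and -0.14. The shared edgeR test had 5 of 31 lower and 0 higher at an adjusted P below 0.05, against 2.14% and 0.919% of all genes, and 15 (48.4%) at an unadjusted P below 0.05, against 16.5%. *GDF15*, a secreted stress cytokine, was called lower in both cell lines, with 97.7 CPM in U87MG control, 37.1 in U87MG shFLI1, 129 in U251MG control and 40.6 in U251MG shFLI1. The gene had log2 fold changes of -1.40 in U87MG (-1.53 to -1.27) and -1.66 in U251MG (-1.77 to -1.56), and its shared log2 fold change was -1.55 ± 0.14 (SE, n = 2 cell lines), with an adjusted P of 0.00106 from edgeR's quasi-likelihood test with Benjamini-Hochberg adjustment. *WARS1*, a tryptophan tRNA synthetase that is also interferon-induced, had log2 fold changes of -0.91 and -1.21. The stress regulator *GADD45A* had -1.57 and -0.94, the glycine transporter *SLC6A9* had -1.12 and -0.63 and the AP-1 family repressor *JDP2* had -1.38 and -0.95. Their adjusted P values from edgeR's quasi-likelihood test with Benjamini-Hochberg adjustment were 0.00698 for *WARS1*, 0.0215 for *GADD45A*, 0.0352 for *SLC6A9* and 0.0458 for *JDP2*. In DESeq2 with the block the calls of *SLC6A9* (adjusted P of 0.0524) and *JDP2* (0.183) were lost, and with scaling to total counts their adjusted P values in edgeR were 0.0765 and 0.0806. That of *JDP2* was 0.0533 after thinning to control depth. Of 47 other ER folding and export genes, 0 were called in either cell line by the read test, against 11.8% of all tested genes in U87MG and 8.5% in U251MG. The shared edgeR test called 0 of them, with 4 (8.51%) at an unadjusted P below 0.05 against 16.5% of all genes, and their medians were -0.062 in U87MG and -0.084 in U251MG.

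**Figure D5:**
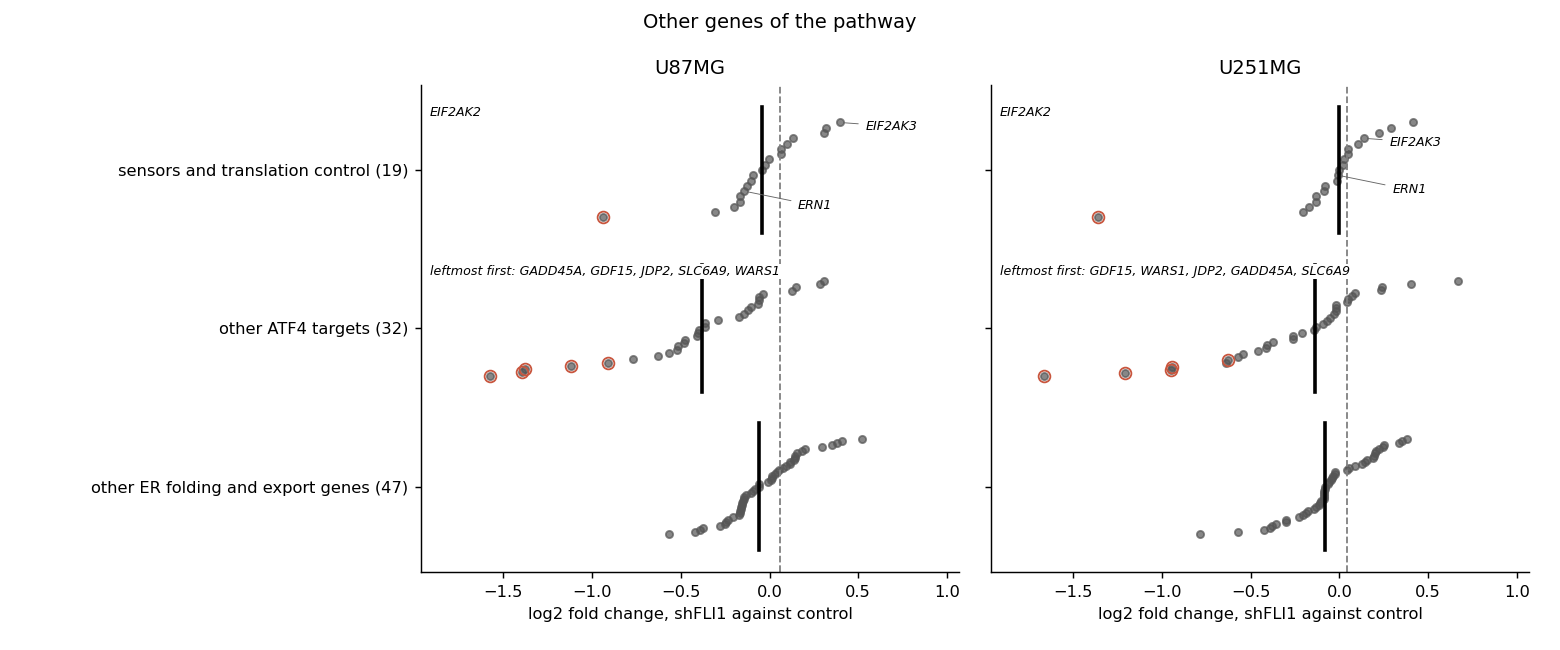
The log2 fold changes (x axis) of the tested genes of 3 further lists, with the number listed in brackets, in U87MG (left) and U251MG (right). Points are genes, black bars medians and dashed lines the medians of all tested genes; red circles mark *EIF2AK2* and the ATF4 targets *GDF15*, *WARS1*, *GADD45A*, *SLC6A9* and *JDP2*, which had adjusted P values between 0.00106 and 0.0458 in the shared edgeR test.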

How the data were processed

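The 38 members, their arms and roles and the other lists were chosen with earlier results of these data known. The authors purified mRNA on poly-T beads, aligned reads to GRCh38 with HISAT2, computed FPKM with StringTie and name DESeq2 for differential expression; the labels name GRCh38.p13 and another mRNA kit than the methods. Their deposited table gives an estimated count, not normalized, and an FPKM for each of 185042 linear RNAs; the tool behind the counts is not given in the sources used here. Of its other value columns, 10 were not used, nor were 31346 circular RNAs.

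Estimated counts were summed per gene identifier (46660), rounded, and scaled by TMM. Reads can be split wrongly between transcripts and near-identical genes. Totals were 12229780, 21250153, 18108612 and 28891055 counts (U87MG control and shFLI1, U251MG control and shFLI1). Within a cell line, genes with at least 10 counts in 1 library were tested with edgeR's exact binomial read test; intervals are 95% Clopper-Pearson, the interval of a difference between cell lines is a Poisson approximation, and both cover counting error only, since PCR reads are not independent molecules. The shared effect used edgeR's quasi-likelihood test with Benjamini-Hochberg adjustment, filterByExpr and the cell line as a block. Its error for a gene combines the spread between the 2 cell lines, each cultured once per arm, with a trend over all genes. The SE is the absolute log2 fold change divided by the square root of the F value of that test. Fits used all genes. Scripts were tested on simulated data with 200 changed genes. Values in all libraries are given for members called in either cell line or by the shared test and for *ATF4*, *DDIT3*, *ASNS*, *XBP1*, *ATF6* and *HSPA5*; from other lists, genes are given that both cell lines called with 1 direction or that the shared test called, and *EIF2AK2*, *EIF2AK3* and *ERN1*. Promoters and symbols came from RefSeq tables of GRCh38.p14. Hairpin sequences are not printed here. Software was Python 3.11.15 and R 4.3.3 with DESeq2 1.42.0 and edgeR 4.0.16.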

Additional observations from a re-analysis of the deposited data

Results flagged for a closer look

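*PHGDH*, which carries out the first step of serine synthesis, moved in opposite directions in the 2 cell lines. Its log2 fold change was -0.57 in U87MG and 0.34 in U251MG, each with a counting interval that left out 0, and the interval of the difference between them was 0.85 to 0.99. With 1 library per arm the difference was not tested against replicate error. In no group of libraries were there enough samples to look for an outlying one.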

How the results depend on the processing

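With 1 library per group there was no replicate to leave out. The cell line block pairs each shFLI1 library with the control of its cell line; the labels carry no replicate numbers by which to pair libraries otherwise. Called members of the ATF4 arm that were lower in U87MG numbered 4, with 1 and 2 for FPKM at pseudocounts of 1 and 0.1 and 12 at 1.5-fold; in U251MG they numbered 3, with 1 for FPKM at a pseudocount of 1 and 8 at 1.5-fold. The arm had 0 called higher in U251MG, with 1 at scaling to total counts and 1 at 1.5-fold. Called lower in the ATF6/XBP1 arm were 0 in U87MG, with 1 at DESeq2 size factors, 1 for FPKM at a pseudocount of 0.1 and 2 at 1.5-fold, and 1 in U251MG, with 0 at scaling to total counts, 0 for FPKM at either pseudocount, 0 after thinning to control depth and 2 at 1.5-fold. Over all genes, calls in either direction numbered 2050 in U87MG, with 830 and 2610 for FPKM at pseudocounts of 1 and 0.1. They numbered 2022 there with DESeq2 size factors and 3626 at 1.5-fold. In U251MG such calls numbered 1548, with 538 and 1775 for FPKM at these pseudocounts and 1599 at total counts. They numbered 1322 there after thinning and 2885 at 1.5-fold. In the shared test the ATF4 arm had 4 lower, with 0 without the cell line block, 1 at total counts and 12 at a minimum of 1 count in any library, where 1 was higher; the ATF6/XBP1 arm had 2 lower, with 0 without the block, 1 with DESeq2 and 0 at total counts. Over all genes that test had 509, with 0 without the block (725 at an unadjusted P below 0.05). It had 364 at total counts, 405 with DESeq2 and 1303 at the minimum of 1 count. Without the block the spread between the cell lines enters the error; the causes of the other shifts were not tested, except that a looser threshold admits more genes. Of all genes called in U87MG 63.4% were higher, and 74.6% with scaling to total counts, 73.4% with FPKM at a pseudocount of 0.1 and 55.9% after thinning; a minimum of 100 counts lowered that of U251MG from 52.3% to 33.8%. Members lower in both cell lines ranged from 19 to 28 of 38, and 34 of 532 fold changes under alternatives had another sign, all in members under 2-fold in that cell line. The difference between the arms kept its sign throughout. Each member had 117 counts or more in each library. For 9 of 38 the counting interval of the difference between cell lines held 0, a count with no share over all genes beside it.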

Other observations

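The sums over RNAs hid opposite values in a few members. In 34 of 38 genes the RNA with the most counts had the sign of the gene in both cell lines. The exceptions were *ASNS*, *ATF6*, *SHMT2* and *SLC7A11*, whose values of the main RNA were, in U87MG and U251MG, -0.57 and -0.079 for *ASNS*, 0.071 and 0.15 for *ATF6*, -0.44 and 0.14 for *SHMT2* and -0.085 and 1.06 for *SLC7A11*. In *PSPH* the main RNA had -1.10 in U251MG against -0.071 for the gene. How far the division of reads between RNAs sets these values was not tested.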
